A study of Mus musculus with 6 samples.

Results

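Genes for 9 growth factor receptors of the developing cortex were followed in primary cortical cultures in which the transcription factor NEUROD2 had been knocked down. They were Met, the neurotrophin receptor genes Ntrk2, Ntrk3 and Ngfr, the fibroblast growth factor (FGF) receptor genes Fgfr1, Fgfr2 and Fgfr3, Erbb4 and Igf1r. Each gene was found in the deposited table by loci that overlapped its annotated span by at least 0.5 of their union. This gave 11 of the 32357 loci, of which the 9 that the authors had tested, 1 for each gene, carry the values below, and the other 2 were untested rows at the positions of Fgfr1 and Erbb4. Met was chosen by its difference in FPKM between the groups and the others as receptors of the same kind, so the values below describe the genes and support no test.

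The cultures came from cerebral cortex of E14.5 Balb/c mouse embryos, and cells in suspension received a pSuperneoGFP plasmid by nucleofection just before plating. The Neurod2 knockdown group held 4 RNA-seq libraries, 2 with shNeurod2-1 and 2 with shNeurod2-2, and the control group held 2 libraries with a non-silencing shRNA. All cultures grew in medium with serum, N-2 and B-27 supplements, and the sample labels give RNA collection after 4 days in vitro, whereas the published methods give a later day. The deposited table holds 1 value per locus for each group, in FPKM (the number of sequenced fragments relative to transcript length and to the total mapped), with both shRNAs pooled. No source used here says whether the libraries came from separate cultures, and the values of single libraries, their spread, their depth and the effect of each shRNA alone are not analysed here. Ratios are therefore knockdown over non-silencing between single pooled values, with no error and no p-value, and a gene was counted as past the line when they differed by over 1.5-fold.

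Receptor tyrosine kinases sit in the cell membrane, pair up when a growth factor binds outside the cell, and phosphorylate each other inside it. Adaptor proteins then join and pass the signal to the RAS and ERK pathway, to PI3 kinase and AKT, and to phospholipase C gamma. In the cortex these receptors act in the growth of progenitors, in neuron survival, in dendrite and axon growth and in synapse formation. MET, the receptor of hepatocyte growth factor, is known in cortical neurons for its part in dendrite growth and synapse maturation. Ngfr differs from the other members, since the protein it encodes has no kinase of its own and belongs to the tumour necrosis factor receptor family.

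NEUROD2 is a basic helix-loop-helix factor, a class that binds E-boxes (CANNTG, where N is any base), and the NEUROD factors favour the forms CAGATG and CAGCTG. The start regions of the receptor genes were read for these letters in RefSeq windows of the GRCm38.p6 assembly that run from 250 bases before to 50 bases after each annotated gene start. Of the 9 genes, 7 matched a window, and Fgfr3 matched a pair of them, so 8 windows were read. Shown here are Met, the gene past the 1.5-fold line, with Ntrk2, the most abundant of the 9, and Fgfr2, the gene with the most E-boxes in its window. Capitals mark CANNTG, and each sequence runs along the strand of its gene.
Met, chr6:17463707-17464006, plus strand: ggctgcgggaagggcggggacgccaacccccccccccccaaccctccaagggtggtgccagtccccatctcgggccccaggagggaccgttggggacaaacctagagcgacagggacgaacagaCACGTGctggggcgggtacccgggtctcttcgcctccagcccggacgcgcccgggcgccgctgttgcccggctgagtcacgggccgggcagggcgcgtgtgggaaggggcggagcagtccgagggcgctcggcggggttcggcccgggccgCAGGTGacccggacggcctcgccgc
Ntrk2, chr13:58806319-58806618, plus strand: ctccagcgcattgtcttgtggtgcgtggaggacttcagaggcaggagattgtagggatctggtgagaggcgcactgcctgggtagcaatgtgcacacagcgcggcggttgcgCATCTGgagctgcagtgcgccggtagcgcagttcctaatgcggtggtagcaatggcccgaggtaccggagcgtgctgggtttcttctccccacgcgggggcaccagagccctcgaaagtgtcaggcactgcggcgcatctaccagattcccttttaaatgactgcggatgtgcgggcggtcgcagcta
Fgfr2, chr7:130266759-130267058, minus strand: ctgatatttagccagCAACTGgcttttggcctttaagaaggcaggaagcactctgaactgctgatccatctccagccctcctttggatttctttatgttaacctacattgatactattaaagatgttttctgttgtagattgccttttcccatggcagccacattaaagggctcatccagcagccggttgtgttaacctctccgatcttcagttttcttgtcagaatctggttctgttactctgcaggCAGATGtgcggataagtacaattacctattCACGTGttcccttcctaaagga

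The Met window held CACGTG at position -126 from the gene start and CAGGTG at position 26, and neither favoured form. In Ntrk2 the single E-box was CATCTG at position -138, which is CAGATG on the other strand. Fgfr2 held CAACTG at -235, CAGATG at -2 and, like Met, a CACGTG, at position 29. An E-box stood in 5 of the 8 windows, those of Met, Ntrk2, Ngfr, Fgfr2 and the first of Fgfr3, against 72.3% of the 32851 promoters in the RefSeq table. CAGATG on either strand stood in 2 of the 8, against 17.2% of all promoters, and CAGCTG in 2 of the 8, at -25 in Ngfr and at -97 in Fgfr3, against 16.3% of all promoters. CAGATG and CAGCTG are themselves forms of CANNTG and are counted in it. The Met window was rich in G and C, at 75.7%, against a median of 52.7% over all promoters, but this was not particular to Met. Other windows had 76.0% in Igf1r, 73.0% and 69.7% in Fgfr3, 71.7% in Ngfr, 61.3% in Ntrk2, 55.3% in Erbb4 and 43.7% in Fgfr2. A match of letters is no binding site, and binding was not measured in these libraries.

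Neurod2 itself, the targeted gene, was at 60.3 FPKM in the knockdown and 104.8 FPKM with the non-silencing shRNA, a log2 ratio of -0.80. Over the 12609 loci that the authors had tested and that averaged at least 1 FPKM, the median log2 ratio was -0.03, the interquartile range ran between -0.13 and 0.07, and 95% lay between -0.50 and 0.43. The cultures were mixed. Neuron markers were the most abundant of the marker lists, with Tubb3 at 879 FPKM in the knockdown and 839 FPKM with the non-silencing shRNA, and markers of astrocytes and radial glia were also high, with Fabp7 at 1227 and 1057 FPKM in the same order. None of the 10 listed markers of endothelial cells and microglia had a tested locus, and the highest of them was at 0.183 FPKM. In such bulk RNA, fewer cells of a type and less RNA per cell cannot be told apart.

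Of the 9 receptor genes, 1 was past the 1.5-fold line upward, Met, and 0 were past it downward. Among the 12609 loci, 3.36% were past the line in either direction, with 1.34% higher and 2.02% lower in the knockdown, and nothing is read from the members' count against these shares, since Met was chosen from the same comparison. Its locus, chr6:17463957-17573980 on the plus strand of mm10, spans 110.0 kb, and its principal annotated transcript has 22 exons. Met was at 24.2 FPKM in the knockdown and 14.6 FPKM with the non-silencing shRNA, a log2 ratio of 0.73 and a level 66.4% higher. The ratio exceeded that of 99.2% of the 12609 loci. Among the members Met ranked number 3 by level in the knockdown and number 5 with the non-silencing shRNA, and it made up 13.7% of their summed FPKM in the knockdown against 8.13% in the control group.

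**Figure D1:**
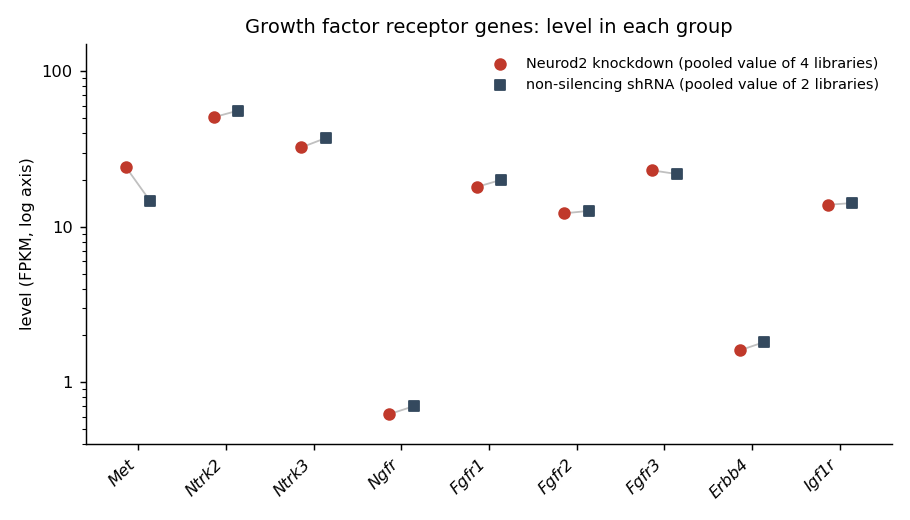
Level of each receptor gene in FPKM on a log axis, with the pooled value of 4 Neurod2 knockdown libraries (red circles, left of each pair) and of 2 non-silencing libraries (dark squares, right). Met lies higher in the knockdown, at 24.2 against 14.6 FPKM, while the pairs of the other 8 genes lie close together, from Ntrk2 at over 50 FPKM in both groups to Ngfr under 1 FPKM in both.

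Of the 9017 loci named for a gene and averaging at least 1 FPKM, 40 had a ratio above that of Met. At a mean of at least 10 FPKM there were 17 of 5201, and in 9 of the 17, among them Rps6ka4 and Parp1, an annotated small RNA gene lies inside the locus. The share of the 5201 loci that hold such a gene is not given here, so nothing is read from the 9. No small RNA gene is annotated inside the Met locus, and its part in any of these ratios was not tested. Reln, the gene of the secreted matrix protein reelin, was another of the 17, at 24.3 FPKM in the knockdown and 11.7 FPKM with the non-silencing shRNA. In the pair of group values together, the named genes nearest to Met were Hilpda, Flad1, Mob1b, Lars2 and Dicer1, by Euclidean distance in log2 FPKM. These distances ran from 0.15 for Hilpda, a lipid droplet protein gene at 23.1 FPKM in the knockdown and 16.0 FPKM in the control group, to 0.31 for Dicer1, the microRNA-processing enzyme gene at 19.9 and 15.9 FPKM in the same order. With only 2 values per gene, a short distance says no more than that the levels were alike.

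The markers of Cajal-Retzius cells, early neurons of the cortical surface that secrete reelin, were higher in the knockdown as well. All 4 of the 6 listed that could be named and had been tested, Reln, Calb2, Ndnf and Nhlh2, were past the 1.5-fold line, with a median log2 ratio of 0.85 and a summed level of 39.4 FPKM in the knockdown and 20.2 FPKM with the non-silencing shRNA. The defining markers Trp73, at 0.638 and 0.353 FPKM, and Lhx5, at 0.408 and 0.203 FPKM, were not tested by the authors. Markers of mesenchymal cells summed to 6.80 FPKM over 6 of 8 genes in the knockdown and 4.08 FPKM in the control group, and the highest single value among them was 1.56 FPKM. Of these 6, Col1a1, Col3a1, Postn and Acta2 were 7.79-fold, 4.47-fold, 3.19-fold and 3.12-fold higher in the knockdown, each averaging under 1 FPKM, whereas Dcn and Pdgfrb had ratios of 1.01 and 0.885. General neuron markers had a median log2 ratio of 0.09 and excitatory neuron markers one of 0.04, with 0 of 6 and 0 of 7 past the line. Among the 12609 loci, 1.34% were past the line upward and 2.02% downward. The part of these cell types in the level of Met was not tested.

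The neurotrophin receptors were all slightly lower in the knockdown, none of them past the line. Ntrk2 encodes TRKB, the receptor of brain-derived neurotrophic factor (BDNF), and its locus on chr13:58806569-59133970 spans 327.4 kb. Its 50.6 FPKM in the knockdown and 55.9 FPKM with the non-silencing shRNA made it the most abundant member in both groups, with a log2 ratio of -0.14. Ntrk3, at chr7:78192114-78577838 on the minus strand, encodes TRKC, the receptor of neurotrophin-3. It was next in level in both groups, at 32.4 FPKM in the knockdown and 37.2 FPKM in the control group, and its log2 ratio was -0.20, the lowest of the 9 for single loci. With all loci inside its annotated span summed it was -0.10, above those of Ntrk2, Ngfr, Fgfr1 and Erbb4. Both genes are known to make kinase-lacking forms beside the full-length receptors, and the value of a locus pools them.

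Ngfr encodes the receptor that all neurotrophins share, and pairs with sortilin or with the TRK receptors. Its locus on chr11:95568821-95587698 spans only 18.9 kb. Its level was the lowest of the members, 0.622 FPKM in the knockdown and 0.700 FPKM with the non-silencing shRNA. The log2 ratio was -0.17, and Ngfr was the only member with a mean under 1 FPKM, so it stands outside the 12609 loci used for comparison.

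The FGF receptors did not share a direction. Fgfr3, an FGF receptor gene of radial glia and astrocytes at chr5:33721724-33737068, was at 23.1 FPKM in the knockdown and 21.9 FPKM in the control group, a log2 ratio of 0.08. It was the only member beside Met with a ratio above 0. Fgfr1, at chr8:25518759-25575718, had 18.0 FPKM in the knockdown and 20.1 FPKM with the non-silencing shRNA, a log2 ratio of -0.15. Fgfr2, at chr7:130162451-130266808, had 12.2 and 12.7 FPKM in the same order, a log2 ratio of -0.05. The larger of these differences, that of Fgfr1, was about 10.1% of the control level. Beside Fgfr3, the markers of astrocytes and radial glia had a median log2 ratio of 0.01 and summed to 1496 FPKM in the knockdown and 1344 FPKM in the control group, with Gfap past the line downward, at 35.1 FPKM in the knockdown and 57.4 FPKM with the non-silencing shRNA. Whether the share of glia had a part in the Fgfr3 value was not tested.

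Erbb4 and Igf1r complete the set. Erbb4, a neuregulin receptor gene known in the cortex mainly from inhibitory interneurons, covers the longest locus of the 9, 1068.1 kb at chr1:68039966-69108059, and is the only member with an annotated small RNA gene inside it, the small nuclear RNA gene Gm25542. It was scarce, at 1.60 FPKM in the knockdown and 1.81 FPKM with the non-silencing shRNA, a log2 ratio of -0.18. Of 6 listed interneuron markers, 3 were named and tested, and these summed to 3.85 FPKM in the knockdown and 4.16 FPKM in the control group. They differed in direction, with Lhx6 at 1.05 FPKM in the knockdown and 0.666 FPKM with the non-silencing shRNA, Dlx5 at 0.622 and 1.00 FPKM, and Gad2 at 2.18 and 2.49 FPKM. Their part in the Erbb4 value was not tested. Igf1r, the gene of the receptor for insulin-like growth factors, was at 13.9 FPKM in the knockdown and 14.2 FPKM in the control group. Its log2 ratio of -0.04 was the nearest to the median of all loci.

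In the order of their levels in the knockdown, the members ran from Ntrk2 through Ntrk3, Met, Fgfr3, Fgfr1, Igf1r, Fgfr2 and Erbb4 to Ngfr. In the control group the order was Ntrk2, Ntrk3, Fgfr3, Fgfr1, Met, Igf1r, Fgfr2, Erbb4 and Ngfr, so that Met alone changed its place relative to the others. Without the values of single libraries, it cannot be said which neighbours in these orders differ beyond their spread. The 8 genes other than Met had log2 ratios between -0.20 and 0.08, with a median of -0.15. Of these 8 ratios, 7 were below 0, and the median of all loci was itself below 0, at -0.03. The interquartile range runs from the 25th to the 75th percentile of all loci and so leaves out many of them by definition. Outside it lay 6 of the 8, with Ntrk2, Ntrk3, Ngfr, Fgfr1 and Erbb4 below it and Fgfr3 above it. Nothing is read from these counts. The summed level of all 9 was 176.7 FPKM in the knockdown and 179.0 FPKM with the non-silencing shRNA.

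**Figure D2:**
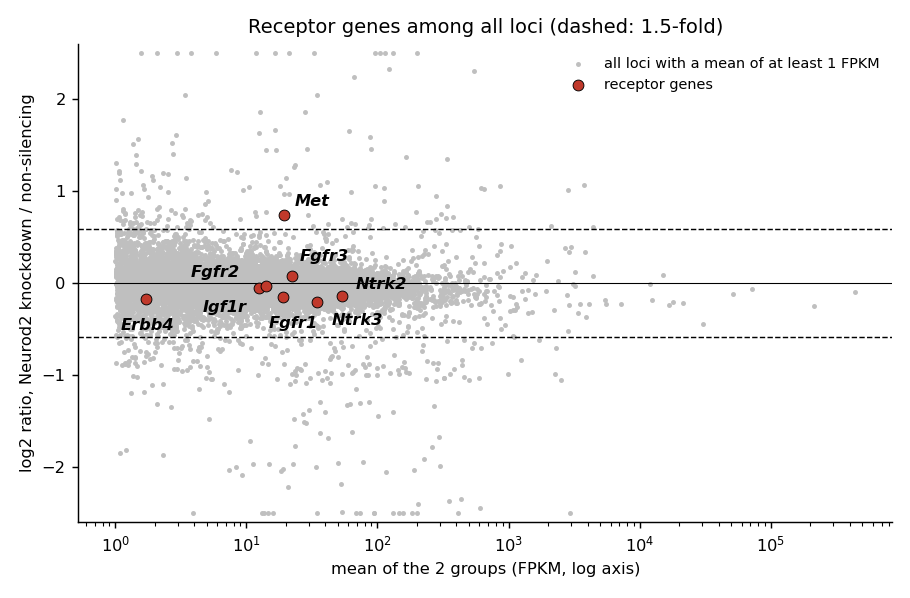
Log2 ratio of Neurod2 knockdown over non-silencing against the mean level of both groups in FPKM (log axis) for 12609 loci (grey) and the 8 receptor genes averaging at least 1 FPKM (red), with dashed lines at 1.5-fold; 29 loci past a log2 ratio of 2.5 in either direction are drawn at the edge. Met, at 0.73, lies above the upper line, and the other 7 lie within the grey band between the lines.

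Of 29 listed ligands of these receptors, 7 had a named and tested locus, and all 7 averaged at least 1 FPKM, with none above 5.95 FPKM in either group. Nrg3 and Nrg4 were each matched by several tested loci and are not counted. At Nrg4, a locus was at 29.3 FPKM in both groups. Another was at 1.16 FPKM in the knockdown and 1.02 FPKM in the control group. Strand was not used in the match, so which of them is Nrg4 is not settled here. A tested locus at Fgf1, averaging under 1 FPKM, was not named either. Past the line were 2 of the 7 named ligand genes, both lower in the knockdown. Of the 12609 loci, 2.02% were past it downward and 3.36% in either direction. The 2 genes, Ntf3 and Nrg2, averaged 3.22 and 2.94 FPKM, against a median of 12.6 FPKM over all loci. The share at such low levels is not given here, so nothing is read from the count. The median log2 ratio of the 7 was 0.02, against -0.03 over all loci. Ntf3, the gene of neurotrophin-3, the ligand of TRKC, was at 2.20 FPKM in the knockdown and 4.25 FPKM with the non-silencing shRNA, a log2 ratio of -0.95. Nrg2, which encodes a neuregulin that binds ERBB4, was at 2.02 FPKM in the knockdown and 3.86 FPKM in the control group, a log2 ratio of -0.93. Hgf, the ligand of MET, had 4.35 FPKM in the knockdown and 4.28 FPKM with the non-silencing shRNA. The log2 ratio was 0.02 for this ligand gene, beside 0.73 for its receptor gene Met. Bdnf, the gene of the TRKB ligand, was at 1.07 and 1.12 FPKM in the same order. The others, Fgf9, Fgf18 and Hbegf, had log2 ratios from 0.10 to 0.26.

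**Figure D3:**
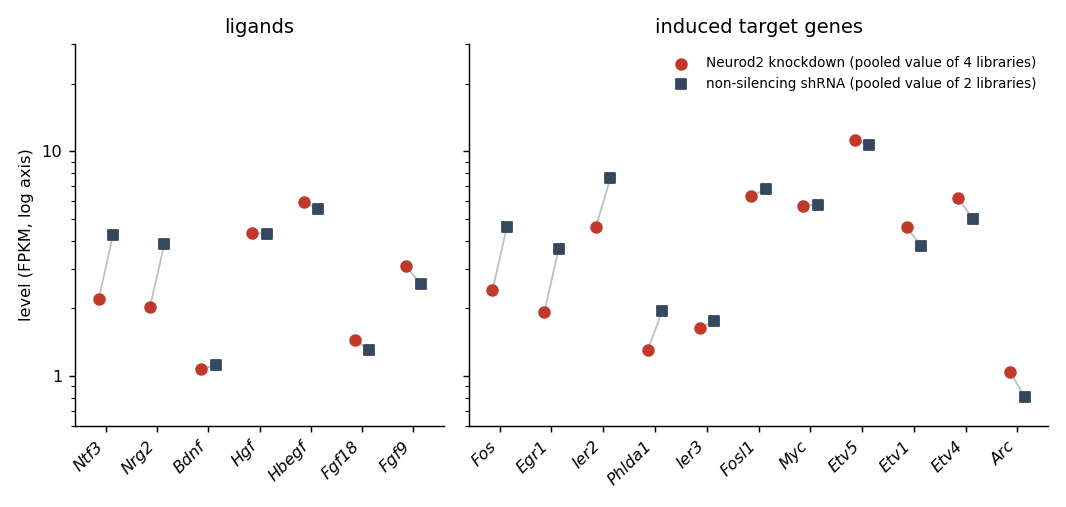
Levels in FPKM on a log axis of the 7 ligand genes (left panel) and the 11 genes commonly induced by growth factor signalling (right panel) that were named and tested, ordered by ratio, with the Neurod2 knockdown as red circles and the non-silencing shRNA as dark squares. Ntf3 and Nrg2 among the ligands, and Fos, Egr1 and Ier2 among the induced genes, lie past 1.5-fold lower in the knockdown, while the pair of points of Hgf nearly coincides.

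Of 34 other receptor tyrosine kinases listed, 12 were named and tested and 11 averaged at least 1 FPKM. These 11 had log2 ratios from -0.33 to 0.17, with 0 past the line and a median of -0.10. Genes matched by several tested loci were not named and are not counted. Among those loci, Aatk had 1 at 24.5 FPKM in the knockdown and 50.9 FPKM with the non-silencing shRNA, past the line downward. Another at Aatk was within the line, at 18.1 and 17.8 FPKM in the same order. An annotated small RNA gene lies inside both, and its part was not tested. A Ddr2 locus was also past the line downward, at 3.23 and 5.37 FPKM. Another at Ddr2 was within the line, at 0.954 and 1.24 FPKM. A locus at Erbb2 was at 66.9 and 73.3 FPKM, and another at 1.64 and 1.94 FPKM. Strand was not used in the match, so which of them is Erbb2 is not settled here. Ryk, a receptor of WNT ligands, was the most abundant of the 11, at 31.7 FPKM in the knockdown and 34.0 FPKM with the non-silencing shRNA. The collagen receptor gene Ddr1 followed, at 25.5 and 28.8 FPKM. Egfr, the epidermal growth factor receptor gene, was at 26.0 FPKM in the knockdown and 25.8 FPKM in the control group. Pdgfra, a receptor gene of oligodendrocyte precursors, had the lowest ratio of the 11. It was at 8.17 FPKM in the knockdown and 10.3 FPKM with the non-silencing shRNA. All 5 markers of those precursors, of which Pdgfra is 1, had ratios below 0 and none was past the line, and they summed to 101 FPKM in the knockdown and 108 FPKM in the control group.

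Co-receptors and partners that bind the ligands outside the cell had a median log2 ratio of 0.04, with 0 of 19 named members past the line. Of the 19 ratios, 13 were above 0. The most abundant of the 19 was Gpc2, a heparan sulfate glypican of developing neurons, at 94.8 FPKM in the knockdown and 99.5 FPKM with the non-silencing shRNA. Igfbp2, which binds insulin-like growth factors, was next, at 91.2 and 87.1 FPKM in the same order. The syndecan gene Sdc3 had 62.0 FPKM in the knockdown and 57.0 FPKM in the control group. Gpc1 had 40.6 and 42.7 FPKM. Among them were also Sort1, the gene of sortilin, with a log2 ratio of 0.04, and Plxnb1, whose plexin protein associates with MET, with one of -0.07. Plxnb2 was matched by several tested loci and is not counted. A locus there was listed at 0 FPKM in the knockdown and 348 FPKM in the control group, and another at 28.8 and 29.9 FPKM in the same order.

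Relay proteins inside the cell had 0 of 31 named members past the line. Of their log2 ratios, 24 were below 0 and 7 above it, with a median of -0.06 against -0.03 over all loci. Genes matched by several tested loci, such as Akt1, were not named and are not counted. A locus at Akt1 was past the line upward, at 105 FPKM in the knockdown and 68.1 FPKM with the non-silencing shRNA, a log2 ratio of 0.63. Another at Akt1 had a log2 ratio of -0.17. The most abundant of the 31 was Maged1, whose protein binds the receptor encoded by Ngfr, at 208 FPKM in the knockdown and 215 FPKM with the non-silencing shRNA. Kidins220, a membrane protein gene downstream of TRK receptors, was at 149 and 158 FPKM. Pik3r1, a regulatory subunit of PI3 kinase, had 93.4 FPKM in the knockdown and 85.4 FPKM in the control group. Gab1, the docking protein known for its tie to MET, had 7.06 FPKM in the knockdown and 7.80 FPKM with the non-silencing shRNA.

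Inhibitors of these pathways had 0 of 18 named members past the line and a median log2 ratio of -0.05. Nf1, matched by several tested loci, is not counted. The most abundant were Spred1 and Rasa1, which restrain RAS signalling, at 34.8 and 34.7 FPKM in the knockdown and 32.7 and 32.7 FPKM with the non-silencing shRNA. Grb10, an adaptor that dampens insulin and insulin-like growth factor receptors, was at 28.2 FPKM in the knockdown and 30.7 FPKM in the control group, and Spry2, a sprouty feedback inhibitor, at 23.2 and 25.1 FPKM. Dusp6, an ERK phosphatase that ERK signalling itself induces, was at 11.3 FPKM in the knockdown and 13.7 FPKM with the non-silencing shRNA, a log2 ratio of -0.29.

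The last list held genes that growth factor signalling commonly induces. Of 16 listed, 11 were named and tested and 10 averaged at least 1 FPKM. These 10 had a median log2 ratio of -0.10, with 3 past the line, all lower in the knockdown. Of the 12609 loci, 2.02% were past it downward and 3.36% in either direction. Nothing is read from this count, since each group has 1 pooled value and the list was chosen with earlier results known. The 3 were the immediate early genes Fos, Egr1 and Ier2, which neuronal activity and serum induce as well. Fos was at 2.40 FPKM in the knockdown and 4.62 FPKM with the non-silencing shRNA, Egr1 at 1.92 and 3.68 FPKM, and Ier2 at 4.62 and 7.62 FPKM. Etv1, Etv4 and Etv5, transcription factor genes that respond to FGF signalling, had log2 ratios of 0.27, 0.31 and 0.08, all within the line. Arc, an activity-induced gene that averaged under 1 FPKM, was at 1.04 FPKM in the knockdown and 0.809 FPKM in the control group.

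**Figure D4:**
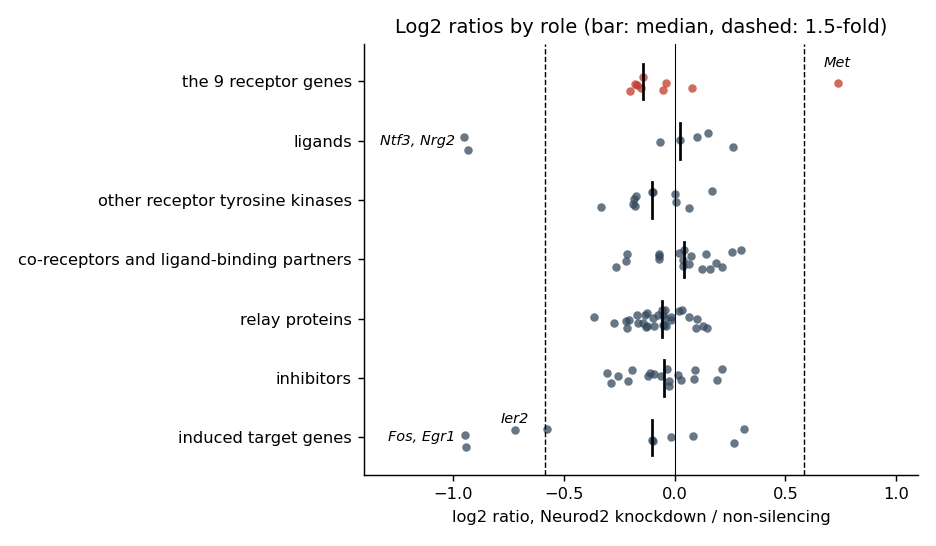
Log2 ratios of Neurod2 knockdown over non-silencing for the 9 receptor genes (red, top row) and for 6 lists of related genes averaging at least 1 FPKM (dark points), with a black bar at each median and dashed lines at 1.5-fold. Met is the only point past the upper line, and Ntf3, Nrg2, Fos, Egr1 and Ier2 are the only ones past the lower line. List genes matched by several tested loci are not drawn.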

How the data were processed

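RNA was measured in 6 libraries of 50 bp single-end reads, 4 with Neurod2 knockdown and 2 with the non-silencing shRNA. Reads were aligned with TopHat, assembled with Cufflinks and compared with Cuffdiff on mm10, as the authors' methods and processing notes say, and tool versions were not given in the sources used here. One deposited table was used, with pooled FPKM values from the authors, which in the authors' tools are scaled to the length of a transcript and the reads mapped, and the reads were not used here, so depth and the precision it gives are unknown. A spreadsheet had turned many numbers of this table into times. Possible readings were listed and kept where they gave, within 2e-05, the log2 fold change deposited by the authors, the only use made of that column. Of 4909 tested loci with a changed cell, 4882 were restored. The step was tested only on values it had already accepted, changed again by the rule it assumes, so that test cannot show that the rule is right. Values of Met, Fgfr1, Fgfr2, Fgfr3 and Igf1r were among those restored. Ratios of restored loci equal the deposited fold changes within 2e-05 by construction. Apart from this, the authors' fold changes, test statistics, p-values and q-values were not used as results.

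Loci were named by overlap of at least 0.5 of the union with a gene of GENCODE M21 or RefSeq GRCm38.p6, the assembly of mm10. Strand was not used, so a locus that matches a gene may lie on either strand. For the lists and rankings, a locus was named only where a single protein-coding gene reached the overlap. No other tested locus could match that gene or share the position. Fgfr2 met the overlap with RefSeq only, since a readthrough transcript extends it in GENCODE, where the overlap is 0.035. Ntrk3 had overlaps of 0.686 with GENCODE and 0.962 with RefSeq. Log2 ratios used no pseudocount, and lists kept loci averaging at least 1 FPKM. The members and lists were chosen with earlier results of these data known. The text names all 9 members and Neurod2, in each list the genes past 1.5-fold, otherwise up to 4 of the most abundant, and the 5 genes nearest to Met. Other genes named for their role (Sort1, Plxnb1, Gab1, Dusp6, Pdgfra, Fabp7, Gfap, Hgf, Bdnf, Arc, the Etv genes, and the genes above Met) were chosen after their values were seen. So were the list genes named though not counted. Alternatives were other fold thresholds, pseudocounts, filters, overlaps, annotations and a centring on the median. Python 3.11, pandas 2.3.3 and numpy 2.4.6 were used.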

Additional observations from a re-analysis of the deposited data

How the results depend on the processing

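Of 76 alternative values, 72 stayed within 0.1 of the log2 ratio, or within 1.5 times the count, and on the same side of the 1.5-fold line, and 0 changed sign while past it. Some of the 72 were fixed in advance. Centring shifts every log2 ratio by the same 0.03, and summing changes nothing where a gene holds no other locus. The 72 therefore do not measure how firm the values are. At a fold threshold of 2 the members past the line were 0, and without Met, an alternative chosen after seeing the data, they were also 0. With all loci inside the gene summed, the log2 ratio of Ntrk3 was -0.10 in place of -0.20, and it was then no longer the lowest of the 9. With a pseudocount of 1 FPKM, that of Ngfr was -0.068 in place of -0.17, since its level lies under the pseudocount. The shift of 0.1 was a fixed setting and says nothing about the replicate spread, which the pooled values do not give. No paired analysis was possible because each group has 1 pooled value per locus, and leaving out a library was not possible for the same reason. The depth behind each value is unknown.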

Other observations

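Some rows of the table lie inside the receptor genes but are not the locus whose values stand for the gene, and they entered only the sums over all loci inside a gene or the comparison with all loci. Fgfr1 and Erbb4 each had a second row at the same position that the authors marked as not tested, at 0.112 FPKM in the knockdown and 0.146 FPKM with the non-silencing shRNA for Fgfr1 and listed at 0 in both groups for Erbb4. The annotated span of Ntrk3 held 2 further loci. One of these, at chr7:78175973-78178385, was at 12.8 FPKM in the knockdown and 11.2 FPKM in the control group, a log2 ratio of 0.19, opposite in sign to that of the main Ntrk3 locus. The other, at chr7:78581066-78738012, was at 0.102 and 0.0630 FPKM in the same order and was not tested by the authors.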
